A study of Mus musculus with 6 samples.

Results

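Transcripts of 7 genes that are textbook products of lung epithelium were followed through RNA-seq libraries of sorted lung endothelial cells (EC). They were the 4 surfactant protein genes Sftpc, Sftpb, Sftpa1 and Sftpd, the secretoglobin genes Scgb1a1 and Scgb3a2, and the lysozyme gene Lyz2, chosen by symbol from the 12623 genes of the table. Each of the 7 had 1 transcript row, and all 7 passed the filter on low values, which asked for 1 library at an RPKM of 1 or more. RPKM is the number of reads scaled by transcript length and by the mapped reads of the library, so levels of different genes can be compared per length.

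The 6 libraries came from C57BL/6N mice for which no transgene or treatment is listed, 3 from infant mice in the second postnatal week and 3 from young adult mice in about the third month of life, each named here by its number within the group, and series of 3 values follow that numbering. The sort kept cells positive for CD31 and CD34 that were free of the leukocyte antigen PTPRC, the lymphatic antigens LYVE1 and PDPN and the erythroid antigen LY76. No antibody against an epithelial adhesion protein was among those listed, although PDPN is also carried by alveolar type 1 epithelial cells. How many animals went into a library was not given in the sources used here, so p-values measure only the spread between these samples, which may be technical.

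The defining markers of EC were abundant throughout. The 16 EC markers had a median between 207.6 and 293.6 RPKM in infant and between 257.4 and 273.7 RPKM in young adult libraries, and none was at 0 in any library. Infant replicate 2 stood apart from replicates 1 and 3, with a summed level of 9 fibroblast markers of 320.3 RPKM against 1271.5 and 880.5 RPKM, and with 3.41% of the RPKM total in 4 globin genes against 11% and 23.5%. The fibroblast markers did not all follow their sum, since 2 of the 9, Dcn and Lum, were highest in infant replicate 2. Young adult libraries had at most 0.487% globin. The study describes female mice, but Ddx3y, a Y-linked gene named here after its values were seen, measured 20.6, 16.5 and 21.9 RPKM in the infant libraries and 0 in all young adult libraries, so sex and age cannot be told apart.

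Pulmonary surfactant is a film of lipid and protein that lowers surface tension in the alveoli. It is made by alveolar type 2 cells, which pack the hydrophobic proteins SP-B and SP-C with phospholipid into lamellar bodies, while the collectins SP-A and SP-D bind sugars on microbes. Secretoglobins are small proteins secreted by club cells of the airways, and lysozyme 2, which cleaves bacterial cell walls, is made by macrophages, neutrophils and mouse alveolar type 2 cells. EC are not counted among the usual sources of these proteins. In bulk libraries fewer cells of a type and less RNA per cell cannot be told apart.

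For orientation, the 250 bases before the annotated start are given for the 3 members with a RefSeq promoter entry (GRCm38.p6), because the members moved together over libraries. Capitals mark CAAGTG and CTCAAG on either strand, which resemble the core bound by the lung transcription factor NKX2-1.
Sftpa1, chr14:41131538-41131787, plus strand: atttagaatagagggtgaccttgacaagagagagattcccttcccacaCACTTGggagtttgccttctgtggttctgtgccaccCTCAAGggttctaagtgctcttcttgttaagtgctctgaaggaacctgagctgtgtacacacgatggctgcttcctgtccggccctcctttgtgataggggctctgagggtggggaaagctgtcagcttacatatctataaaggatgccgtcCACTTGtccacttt
Sftpb, chr6:72304360-72304609, plus strand: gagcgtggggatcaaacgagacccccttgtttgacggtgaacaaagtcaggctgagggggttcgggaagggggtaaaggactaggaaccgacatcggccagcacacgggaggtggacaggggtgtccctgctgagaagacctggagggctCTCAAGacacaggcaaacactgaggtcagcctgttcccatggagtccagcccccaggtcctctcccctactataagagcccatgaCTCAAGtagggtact
Lyz2, chr10:117282273-117282522, minus strand: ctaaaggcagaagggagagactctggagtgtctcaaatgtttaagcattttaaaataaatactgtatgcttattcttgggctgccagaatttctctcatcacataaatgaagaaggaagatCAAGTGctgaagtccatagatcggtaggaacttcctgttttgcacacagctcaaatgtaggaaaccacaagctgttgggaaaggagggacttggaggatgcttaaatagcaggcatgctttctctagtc
Sftpa1 held 3 matches, starting 202, 166 and 14 bases before the annotated start. Sftpb held 2, at 100 and 15 bases, and Lyz2 held 1, at 129 bases. Over 32851 promoter windows of the same length 22.6% held at least 1 match, so a match describes the letters only. The gene Nkx2-1 itself was on the list of surfactant genes used below but had no row among the deposited values.

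Sftpc was among the most abundant transcripts of the EC libraries, the other 3 surfactant genes were far lower, and for all 4 the levels in the 2 ages overlapped. Sftpc (chromosome 14, 70520941 to 70524081, transcript NM_011359, 6 exons), which encodes the precursor of the membrane-inserted SP-C, gave 3733.9, 4683.1 and 4583.0 RPKM across the infant libraries against 1450.9, 2826.7 and 4883.1 RPKM across those from young adults. The groups overlapped, since the highest value of all was that of young adult replicate 3 and the lowest that of young adult replicate 1. Among the 12623 genes Sftpc held ranks 6, 2 and 6 by RPKM in the infant libraries and ranks 9, 2 and 2 in the young adult libraries. The mean was 4333.3 ± 521.5 RPKM in infant and 3053.6 ± 1727.3 RPKM in young adult EC (SD, n = 3 each). On the log2(RPKM + 1) scale the difference, young adult minus infant, was -0.67 with a standard error of 0.44 (95% interval -1.69 to 0.35), which did not pass the test (limma, Benjamini-Hochberg adjusted p 0.292). Leaving out young adult replicate 1 gave -0.21, and leaving out replicate 3 of that age gave -1.09.

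Sftpb (chromosome 6, 72304610 to 72314373, transcript NM_147779, 11 exons) encodes SP-B, which organises the lipid film. It gave 63.4, 85.0 and 78.7 RPKM across the infant libraries against 25.9, 50.2 and 79.6 RPKM across those from young adults. Young adult replicate 3 lay within the infant range, and young adult replicate 1 was the lowest library, as for Sftpc. The log2 difference was -0.66 ± 0.35 (SE), with a limma adjusted p of 0.199. Leaving out young adult replicate 1 gave -0.25, and leaving out replicate 3 of that age gave -1.04 (adjusted p 0.0529).

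The collectin genes Sftpa1 (chromosome 14, 41131788 to 41136373) and Sftpd (chromosome 14, 41172212 to 41185198) lie 35839 bases apart. Sftpa1, encoding SP-A, gave 89.2, 139.0 and 79.0 RPKM across the infant libraries against 43.8, 94.1 and 158.6 RPKM across those from young adults. The young adult values enclosed all infant values, and the log2 difference was -0.19 ± 0.43 (SE, limma adjusted p 0.774). Sftpd, encoding SP-D, gave 31.6, 56.2 and 30.6 RPKM across the infant libraries against 12.1, 29.6 and 51.4 RPKM across those from young adults. Here too the groups overlapped, with a log2 difference of -0.50 ± 0.47 (SE, limma adjusted p 0.467). The intervals of both, -1.19 to 0.81 for Sftpa1 and -1.59 to 0.60 for Sftpd, included a fall as well as a rise, so neither a change nor its absence was shown.

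**Figure D1:**
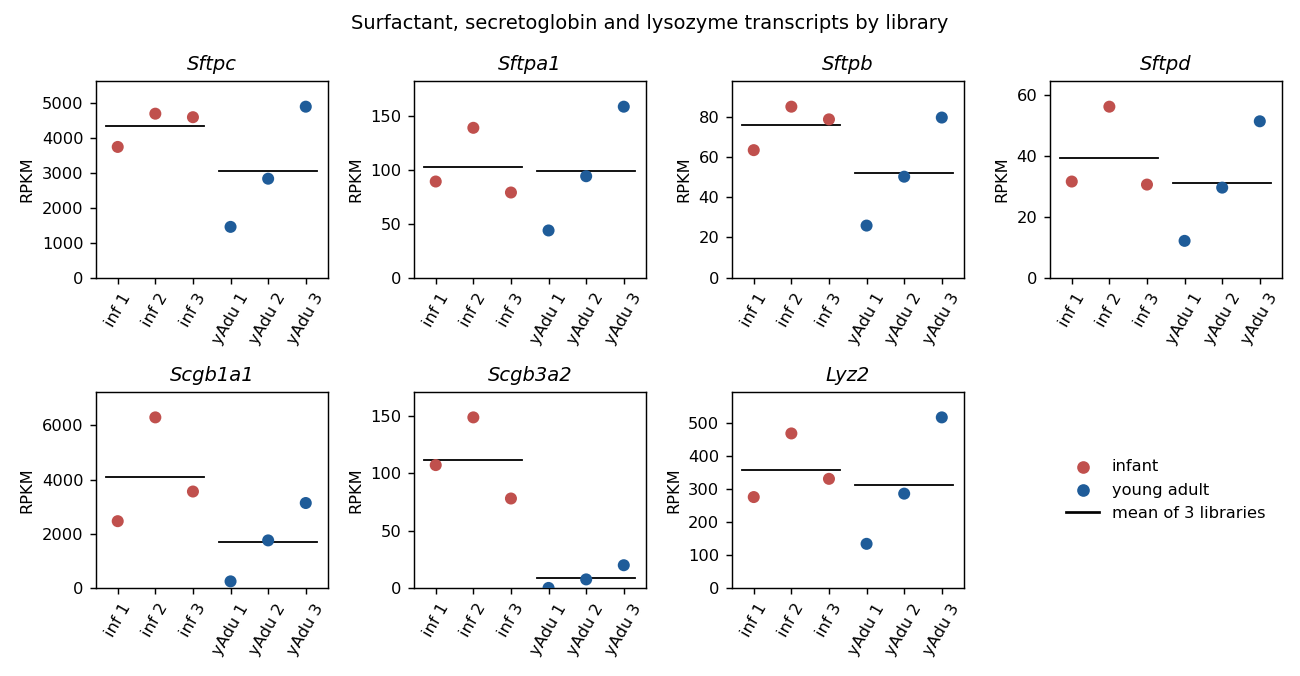
RPKM of each of the 7 genes (vertical axes, linear and starting at 0) in the 3 infant (inf, red) and 3 young adult (yAdu, blue) libraries, with black lines at the mean of each group. In every panel infant replicate 2 is the highest infant point and young adult replicate 1 the lowest young adult point, and in the panel of Scgb3a2 alone all young adult points, 0.4 to 20.1 RPKM, lie below all infant points, 78.0 to 148.4 RPKM.

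Of the 2 secretoglobin transcripts, Scgb3a2 was lower in young adult EC and Scgb1a1 did not pass the test. Scgb3a2 (chromosome 18, 43764301 to 43767399, transcript NM_054038) encodes a secretoglobin of the airways. It gave 107.0, 148.4 and 78.0 RPKM across the infant libraries against 0.4, 7.8 and 20.1 RPKM across those from young adults. All young adult values were below all infant values, and the mean was 11.8 times higher in infant (111.1 ± 35.4 RPKM) than in young adult EC (9.43 ± 9.95 RPKM, SD, n = 3 each). The log2 difference was -4.09 ± 0.86 (SE, 95% interval -6.07 to -2.10), with a limma adjusted p of 0.0149. The value of young adult replicate 1 is near the rounding step of the table. Without that library the log2 difference was -2.99 (adjusted p 0.0154), and the call was lost without infant replicate 1 (adjusted p 0.0526) and without young adult replicate 2 (adjusted p 0.0538).

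Scgb1a1 (chromosome 19, 9083642 to 9087956, transcript NM_011681, 3 exons), the major secreted protein of club cells, gave 2470.7, 6286.0 and 3560.6 RPKM across the infant libraries against 258.1, 1764.0 and 3138.3 RPKM across those from young adults. In infant replicate 2 it was the most abundant of all genes, and in young adult replicate 1 it ranked 117. Young adult replicate 3 lay above infant replicate 1, so that the groups overlapped. The log2 difference of -1.76 had a standard error of 0.86 and a 95% interval from -3.74 to 0.23 (limma adjusted p 0.166), and without young adult replicate 1 it was -0.70.

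Lyz2 (chromosome 10, 117277541 to 117282272, transcript NM_017372, 4 exons) gave 275.3, 467.1 and 330.2 RPKM across the infant libraries against 134.3, 285.6 and 515.5 RPKM across those from young adults. The young adult libraries held both the lowest and the highest value. The log2 difference was -0.37 ± 0.45 (SE, limma adjusted p 0.577). The neighbouring Lyz1, the lysozyme of Paneth cells, gave 54.2, 67.2 and 74.0 RPKM across the infant libraries against 22.3, 32.7 and 88.4 RPKM across those from young adults, a log2 difference of -0.67 ± 0.44 (SE, adjusted p 0.286). The coding sequences of the 2 lysozyme genes are identical at 422 of 444 bases in the GENCODE transcripts, with a longest shared run of 118 bases, so reads could be assigned to either and both values are uncertain.

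All 7 genes had a negative log2 difference, with a median of -0.66, as had 58.6% of the 12458 genes tested, whose median was -0.07. The sign rested on 1 library for 3 of them, since without young adult replicate 1 the difference was 0.30 for Sftpa1, 0.04 for Sftpd and 0.14 for Lyz2. The 7 share libraries and are not independent of each other. By an adjusted p under 0.05 and a change over 0.81 on the log2 scale, the fold threshold of the study, 1 of the 7 was called, Scgb3a2, where 11.4% of all genes were called in either direction, 8.1% as lower and 3.33% as higher in young adult EC. The same gene was the 1 of 7 without overlap between the ages, which held for 43.4% of all genes and, in the lower direction, for 27.1%. A single call among 7 genes (14.3%) is near the background. The count without overlap rested on young adult replicate 3, without which it was 5 of 7. With fewer libraries the ages separate more easily for any gene. The share of all genes without overlap in that setting is not given here, so the shares above are no background for it.

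**Figure D2:**
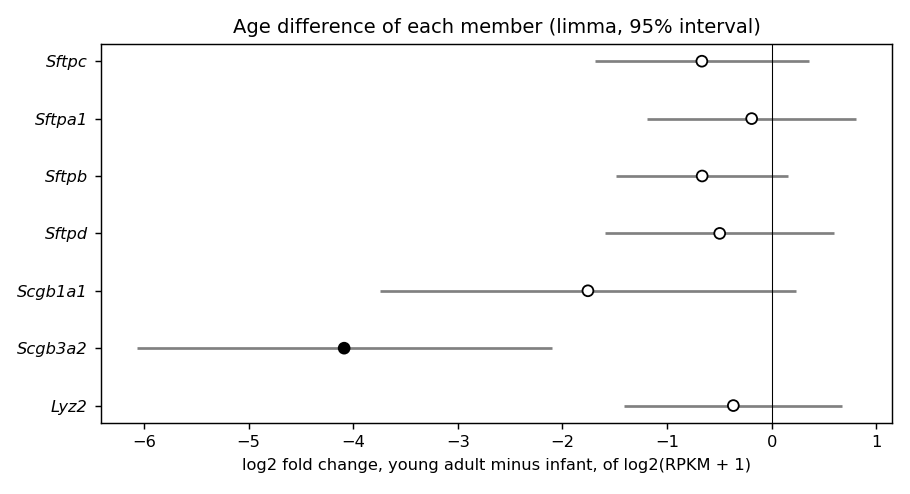
Difference of each gene between young adult and infant EC on the log2(RPKM + 1) scale (horizontal axis), with 95% limma intervals from 3 libraries per group. The filled point, Scgb3a2 at -4.09, was called, and the intervals of the 6 open points include 0.

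The spread between young adult libraries was larger for these genes than for nearly all others, and the order of these libraries was the same for all 7. Among the young adult libraries all 7 genes were lowest in replicate 1 and highest in replicate 3, an order that 23.1% of all tested genes had. Among the infant libraries all 7 were highest in replicate 2, as were 35.7% of all genes, and 9.45% of all genes had both orders. For Sftpc the margin was small, 4683.1 RPKM in infant replicate 2 against 4583.0 RPKM in infant replicate 3. The orders were read from the deposited RPKM and were not checked after rescaling. The lowest infant library was replicate 1 for Sftpc, Sftpb, Scgb1a1 and Lyz2 and replicate 3 for Sftpa1, Sftpd and Scgb3a2. The replicate numbers carry no order of their own.

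In size, the members stood further out. Young adult replicate 3 exceeded replicate 1 by 3.37 times for Sftpc, 3.07 for Sftpb, 3.62 for Sftpa1, 4.25 for Sftpd and 3.84 for Lyz2. The corresponding ratios were 12.2 for Scgb1a1 and 50.2 for Scgb3a2, the last resting on a value of 0.4 RPKM near the rounding step. For genes averaging 5 RPKM or more, the highest young adult library exceeded the lowest by a median of 1.19 times and by 1.65 times at the 95th percentile. A ratio of at least 3 between these libraries was found for 43 of 6979 such genes (0.616%), and these included all 7 members, a limit that was set after the values of the members were seen. Some of these genes, such as Scgb3a2, owe part of their mean to the infant libraries. With the mean taken over the young adult libraries alone, 24 of 6721 genes (0.357%) reached this ratio, all 7 members included. Of the 43, 28 were members or on a list of cell type or surfactant genes, among them the club cell genes Cyp2f2 (12.0 times), Hp (9.13) and Cbr2 (5.71) and the macrophage genes Chi3l3 (10.7), Ear2 (13.0) and Cd68 (5.31). The summed level of the 16 EC markers differed between these libraries by 1.10 times, with 8 of the 16 in the same order.

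Among infant libraries the spread was smaller. The highest library exceeded the lowest by 1.25 times for Sftpc, 1.34 for Sftpb, 1.76 for Sftpa1, 1.84 for Sftpd, 1.70 for Lyz2, 1.90 for Scgb3a2 and 2.54 for Scgb1a1, where the median of all genes averaging 5 RPKM or more was 1.24. Infant replicate 2, in which all members were highest, was the infant library with the lowest summed fibroblast and globin values given above, and 12 of the 16 EC markers were highest in it as well. Their part in the result was not tested. Summed, the 7 genes took up 2.46%, 4.21% and 2.58% of all RPKM of the infant libraries and 0.72%, 1.83% and 2.998% of those of young adults, of which Sftpc and Scgb1a1 alone made up between 88.8% and 93.2%.

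**Figure D3:**
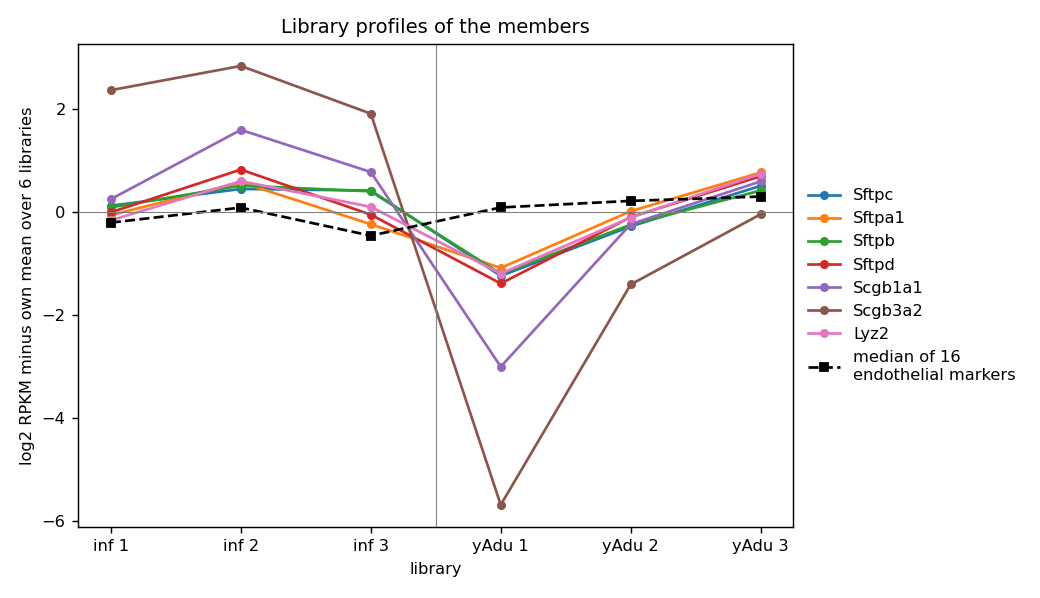
log2 RPKM of each gene minus its own mean over the 6 libraries (vertical axis) for each library (horizontal axis), with the median of 16 endothelial markers as a dashed line. Lines only join the values of 1 gene. The 4 surfactant genes and Lyz2 follow similar courses, with a dip at young adult replicate 1 that is deepest for Scgb1a1 and Scgb3a2 and hardly visible in the endothelial markers. From infant replicate 2 to infant replicate 3 Sftpa1 and Sftpd fall further than Sftpc and Sftpb.

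To separate the amount of these transcripts in a library from their proportions, ratios of RPKM within a library were formed, which no rescaling of libraries can change. Sftpb made up 17.0, 18.2 and 17.2 RPKM per 1000 RPKM of Sftpc across the infant and 17.9, 17.8 and 16.3 across the young adult libraries. The highest ratio was 1.11 times the lowest, while Sftpc itself ranged over 3.37 times. Of 6977 other genes averaging 5 RPKM or more and never at 0, Sftpb alone (0.0143%) had a ratio to Sftpc with so narrow a range. The limits were read from the members, and 6 genes (0.086%), Sftpb and Lyz2 included, had a range no wider than that of Lyz2. After Sftpb these were the type 2 cell chemokine gene Cxcl15 (1.18 times), the lamellar body gene Lamp3 (1.35), the chloride channel gene Clic3 (1.36), the aspartic protease gene Napsa (1.43), whose product helps to process SP-B, and Lyz2 (1.47). Clic3 and Napsa were named, and all ratios chosen, after their values were seen.

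The ratio of Lyz2 to Sftpc was 73.7, 99.7 and 72.0 per 1000 across the infant and 92.6, 101.0 and 105.6 across the young adult libraries, a range that overlapped between the ages (exact two-sided permutation p 0.2). For Sftpd the ratios were 8.46, 12.0 and 6.68 in infant and 8.34, 10.5 and 10.5 in young adult libraries (exact two-sided permutation p 0.7). For Sftpa1 they were 23.9, 29.7 and 17.2 in infant and 30.2, 33.3 and 32.5 in young adult libraries. Every young adult ratio of Sftpa1 was above every infant one, a difference of 0.47 on the log2 scale (1.39 times, exact two-sided permutation p 0.1).

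Ratios of both secretoglobins to Sftpc were lower in every young adult library than in every infant library. Scgb1a1 measured 661.7, 1342.3 and 776.9 per 1000 RPKM of Sftpc across the infant and 177.9, 624.0 and 642.7 across the young adult libraries. The groups were separated by a narrow gap, and the log2 difference was -1.09 (exact two-sided permutation p 0.1). Scgb3a2 measured 28.7, 31.7 and 17.0 per 1000 RPKM of Sftpc in infant and 0.276, 2.76 and 4.12 in young adult libraries, a log2 difference of -4.09 (exact two-sided permutation p 0.1). Between the secretoglobins themselves, Scgb3a2 measured 43.3, 23.6 and 21.9 per 1000 RPKM of Scgb1a1 in infant and 1.55, 4.42 and 6.41 in young adult libraries. That ratio was 7.99 times higher in infant EC (log2 difference -3.00, exact two-sided permutation p 0.1), with no overlap. With 3 against 3 libraries 0.1 is the smallest p this test allows, and adjusted over the 7 ratios compared it was 0.175, so none could pass 0.05.

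**Figure D4:**
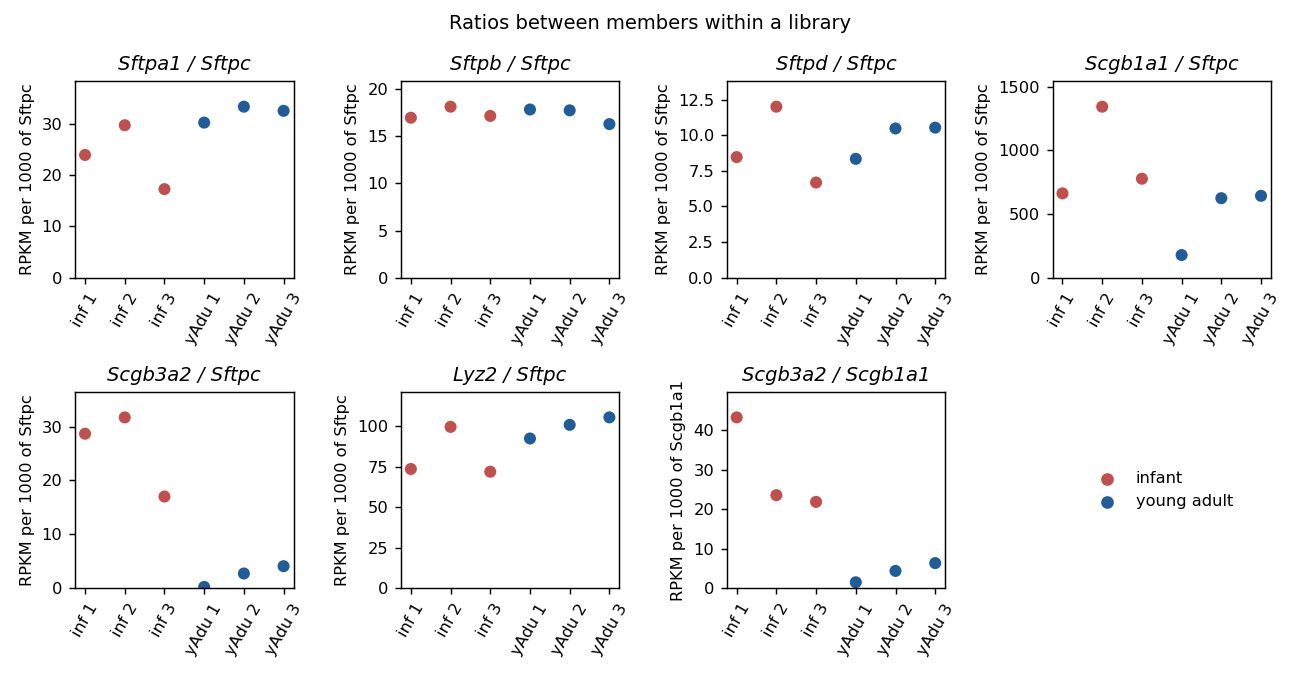
RPKM of 1 gene per 1000 RPKM of another within the same library (vertical axes, linear and starting at 0) for infant (red) and young adult (blue) libraries. Sftpb to Sftpc stays between 16.3 and 18.2 in all 6 libraries, while the ratios of Scgb3a2 to Sftpc and to Scgb1a1 are lower in every young adult library than in every infant library.

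Pearson correlations over the 6 libraries were computed on log2(RPKM + 1) for the 15 pairs of the 6 genes whose age groups overlapped. The lowest r was 0.848 (Sftpa1 and Scgb1a1), the median 0.938 and the highest 0.997 (Sftpc and Sftpb). For all 15 pairs the exact two-sided permutation p, adjusted over the pairs, was under 0.05, between 0.0167 and 0.0403. Spearman's rho lay between 0.486 and 0.943, and none of its exact permutation p adjusted over the pairs was under 0.05 (0.0625 to 0.356). When the 2 libraries farthest from the median of the first gene were left out, which included young adult replicate 1 for every pair, r fell to between 0.378 and 0.952. It stayed highest for Sftpd with Lyz2 (0.952), Sftpa1 with Sftpd (0.943) and Sftpc with Sftpb (0.938). The relations of Sftpa1 with Sftpb (0.378) and of Sftpd with Scgb1a1 (0.416) were among those that rested most on the libraries left out. The second library left out differed with the first gene of a pair, so these values rest on different libraries and are not strictly comparable. For Scgb3a2 no pooled correlation is given, because its values fell into separate ranges by age. All points share the libraries and their scaling.

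**Figure D5:**
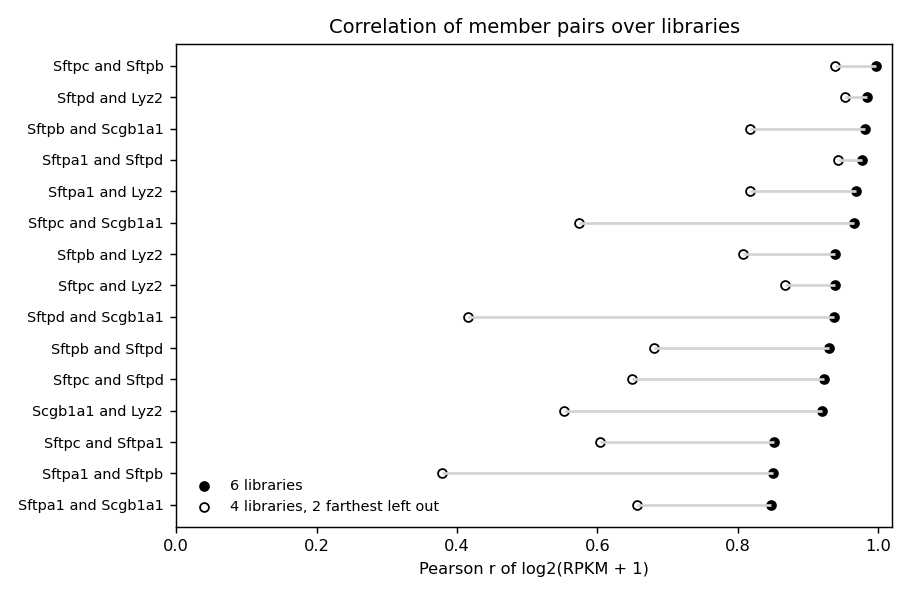
Pearson r of log2(RPKM + 1) for 15 pairs of genes (rows) over 6 libraries (filled) and over the 4 that remain without the 2 libraries farthest from the median of the first gene (open). Filled points lie between 0.848 and 0.997 and open points between 0.378 and 0.952.

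The genes whose library pattern was most like that of a member were then listed, as a description over 6 libraries and 6977 genes averaging 5 RPKM or more. For Sftpc these were Cxcl15 (r = 0.996), the leukocyte integrin gene Itgb2 (0.992), the prohibitin gene Phb2 (0.989), Ear2 (0.986), a ribonuclease gene of macrophages and eosinophils, and 1600029D21Rik (0.986). Cxcl15 gave 19.3, 23.9 and 21.5 RPKM across the infant libraries against 8.0, 15.1 and 25.1 RPKM across those from young adults. For Scgb1a1 they were the club cell cytochrome gene Cyp2f2 (0.991), the haptoglobin gene Hp (0.985), Ldhb (0.984), the phosphate transporter gene Slc34a2 (0.978) and Snx5 (0.978). For Lyz2 they were the ATP synthase gene Atp5b (0.996), the chitinase-like gene Chi3l1 (0.984), Cndp2 (0.984), Dctn5 (0.984) and Acad9 (0.980). The correlation does not show the size of a pattern, since Cyp2f2 ranged over 31.3 times and Cxcl15 over 3.14 times, but Phb2 over 1.26 and Acad9 over 1.23 times.

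Genes that serve the production of surfactant were followed on a list of 19. Genes with a row among the deposited values are called measured, and why others lacked a row was not given. Of the 19, 14 were measured. 11 were lower and 3 higher in young adult EC, with a median log2 difference of -0.45, and 1 was called, Etv5, a transcription factor of type 2 cells, which fell by 0.85 on the log2 scale (limma adjusted p 0.0446). Over all genes 8.1% were called lower and 58.6% were lower, called or not, and the single call among 14 is near that background. Most abundant were Gpr116 (Adgrf5), a receptor that restrains surfactant release and that EC express as well, Slc34a2 and the lipid desaturase gene Scd1. Gpr116 gave 120.8, 194.3 and 116.4 RPKM across the infant libraries against 243.8, 249.0 and 237.9 RPKM across those from young adults. Every young adult value was above every infant one, at a limma adjusted p of 0.0261 and a log2 difference of 0.80, just under the fold threshold. Slc34a2 gave 54.4, 65.4 and 50.3 RPKM across the infant libraries against 14.4, 33.3 and 50.4 RPKM across those from young adults (log2 difference -0.93, adjusted p 0.112). Scd1 gave 32.2, 19.7 and 32.4 RPKM across the infant libraries against 25.4, 50.1 and 53.5 RPKM across those from young adults, lowest in infant replicate 2, where the members were highest among infants (log2 difference 0.56, adjusted p 0.205). Abca3, the lipid transporter of lamellar bodies, ranged only from 16.9 to 22.5 RPKM over the 6 libraries, with its lowest value also in young adult replicate 1.

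Markers of the epithelial cells that make these transcripts were read in the same libraries. On a list of 19 alveolar type 2 markers without the members, 6 were also on the surfactant list. All 19 were lowest in young adult replicate 1 and highest in young adult replicate 3 of their group, as were 23.1% of all genes. But 8 of the 19 were highest in infant replicate 2, where all members were highest among infants, as were 35.7% of all genes. All 19 were lower in young adult EC, with a median log2 difference of -0.71, and 3 were called lower, Muc1, Egfl6 and Etv5. Over all genes 58.6% were lower and 8.1% were called lower. Slc39a8 reached the filter of 1 RPKM in infant libraries alone, which favours a lower young adult value. The summed level of the 19 was 351.6 to 406.9 RPKM in infant and 135.0 to 389.5 RPKM in young adult libraries, and none was at 0 in any library. The most abundant were Lyz1, Slc34a2 and Chi3l1, the last of which gave 47.9, 62.0 and 47.5 RPKM across the infant libraries against 22.7, 44.5 and 66.0 RPKM across those from young adults. Lyz1 is not independent of the member Lyz2, since reads could be assigned to either. Of 13 measured markers of club and other secretory airway cells, 12 were lower and 6 were called lower (58.6% and 8.1% of all genes), with a median log2 difference of -1.43. Among these Scgb3a1, a further secretoglobin, gave 71.8, 155.6 and 38.0 RPKM across the infant libraries against 8.9, 9.0 and 20.9 RPKM across those from young adults, a log2 difference of -2.56 ± 0.51 (SE, limma adjusted p 0.0125). Cyp2f2 gave 172.4, 403.9 and 182.1 RPKM across the infant libraries against 12.9, 81.7 and 155.0 RPKM across those from young adults (-2.06, adjusted p 0.099). Cbr2, a carbonyl reductase, fell short of the threshold as well, with means of 197.9 ± 91.2 and 66.9 ± 48.6 RPKM (SD, n = 3 each, limma adjusted p 0.0616). Nupr1, a stress-response gene, was called lower with a log2 difference of -2.59 (adjusted p 0.00257), but among infant libraries it was lowest in replicate 2, unlike the members. The summed level of the 13 was 568.5 to 1107.1 RPKM in infant and 65.8 to 390.8 RPKM in young adult libraries, and 2 of them, Gabrp and Muc5b, were at 0 in at least 1 young adult library. Both were called and reached the filter of 1 RPKM in infant libraries alone, which favours a lower young adult value.

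General epithelial genes were low beside the secretory products. Epcam, whose protein is the usual antigen for sorting epithelium, gave 0.8, 1.1 and 0.6 RPKM across the infant libraries against 0.0, 0.1 and 0.5 RPKM across those from young adults (limma adjusted p 0.0577). Cdh1, encoding E-cadherin, gave 7.1, 9.2 and 9.2 RPKM across the infant libraries against 1.5, 3.5 and 5.1 RPKM across those from young adults and was called lower (log2 difference -1.21, adjusted p 0.0241). On the list of 11 measured adhesion and keratin genes 8 were called lower and 11 of 11 were lower, where 8.1% and 58.6% of all genes were. Epcam and the called Prom1 reached the filter of 1 RPKM in infant libraries alone, which favours a lower young adult value. The summed level of the 11 was 83.7 to 121.8 RPKM in infant and 41.2 to 70.3 RPKM in young adult libraries. The simple epithelial keratin genes Krt18 and Krt19 were among the called, with log2 differences of -1.68 and -2.00. Ocln, the most abundant on the list and a tight junction gene, had a log2 difference near 0 (adjusted p 0.989). It gave 32.9, 47.5 and 32.4 RPKM across the infant libraries against 32.7, 39.2 and 39.2 RPKM across those from young adults. Ocln thus made up the larger share of the summed level in each young adult library.

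For Lyz2, markers of macrophages and monocytes were read as well. They included Lyz1, which was also on the type 2 list and whose reads could be those of Lyz2. Of 16 measured markers 15 were lower in young adult EC and none was called lower, where 58.6% and 8.1% of all genes were. Within the young adult group 15 were lowest in replicate 1 and highest in replicate 3, as were 23.1% of all genes. Among infant libraries 5 of the 16 were highest in replicate 2, near the share of 35.7% of all genes. Ly6c2 was called higher. Chi3l3, a chitinase-like gene of alveolar macrophages, gave 31.2, 57.3 and 14.5 RPKM across the infant libraries against 6.4, 35.7 and 68.3 RPKM across those from young adults. Cd68, a lysosomal protein of macrophages, gave 7.4, 7.6 and 9.2 RPKM across the infant libraries against 1.3, 3.0 and 6.9 RPKM across those from young adults (limma adjusted p 0.0697). Csf1r, the receptor for macrophage growth factor, was at most 1.6 RPKM. Ptprc, the gene of the antigen by which leukocytes were excluded, gave 4.2, 3.0 and 7.0 RPKM across the infant libraries against 0.2, 1.0 and 1.8 RPKM across those from young adults and was called lower (log2 difference -1.54, adjusted p 0.0182). The summed level of the 16 was 219.6 to 344.8 RPKM in infant and 291.0 to 561.7 RPKM in young adult libraries, of which Ly6c2, also expressed by EC, made up the larger share in young adult replicates. The part of epithelial and myeloid RNA in the values of the 7 genes was not tested.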

How the data were processed

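The authors isolated RNA with a PicoPure kit, made cDNA from 10 ng of total RNA with the SMARTer Ultra Low kit, sequenced paired ends, aligned with STAR to mm10 on the RefSeq annotation and tested with DESeq2. The deposited values are RPKM per RefSeq transcript, computed by the authors and rounded to 1 decimal, in 17241 rows. Counts were not analysed here. Depth per library is therefore unknown, and single values carry no counting error. The STAR version and the RPKM program were not given in the sources used here. Groups were taken from the titles.

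For each gene the row with the highest mean was kept (12623 genes). In place of the count test of the study, log2(RPKM + 1) was fitted with limma 3.58.1 in R 4.3.3 (eBayes with an intensity trend, age as the only term) over the 12458 genes that reached an RPKM of 1 in some library, with Benjamini-Hochberg adjustment. Calls needed an adjusted p under 0.05 and a log2 change over 0.81. The fit was tested on simulated data. The pseudocount of 1 understates changes of low genes. Ratios were compared with exact permutation tests and correlations over all 720 orders of the libraries. Positions are from RefSeq on GRCm38, which has the coordinates of mm10, and exons from GENCODE. Sequences are from RefSeq.

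Members and gene lists were chosen with earlier results of these data known. Named genes were the members, the 3 most abundant genes of a list and a few fixed markers, and the 5 genes most like Sftpc, Scgb1a1 and Lyz2. Other genes named were called ones or were chosen after their values were seen. Alternatives were 2 other pseudocounts, 2 filters, 4 scalings, 3 variance settings, a replicate block, 2 ways to treat transcript rows and leaving out each library. The ratios between members, leaving out libraries for the secretoglobin ratio and the filter on young adult means were added after seeing the data.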

Additional observations from a re-analysis of the deposited data

How the results depend on the processing

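The call of Scgb3a2 held in 18 of 20 alternatives, with a log2 difference between -4.95 and -2.99. It was lost on leaving out infant replicate 1 (-4.09) or young adult replicate 2 (-4.32), which left 0 members called, so the count of called members ranged from 0 to 1 when 1 library was left out. Scgb1a1 and Sftpb stayed lower and uncalled in all 20 alternatives, but ranged from -2.49 to -0.70 and from -1.04 to -0.25 when 1 library was left out, and Sftpc ranged from -1.09 to -0.21. Differences of other uncalled members changed sign in single settings. Sftpc was 0.09 under quantile normalization, where the median of all genes moved from -0.07 to 0.04. Sftpa1 was 0.05 without infant replicate 2. Leaving out young adult replicate 1 gave 0.30 for Sftpa1, 0.04 for Sftpd and 0.14 for Lyz2, and over all left-out libraries the lowest values of these genes were -0.62, -0.96 and -0.83. When 1 library was left out, the number of members without overlap ranged from 1 to 5, with 5 without young adult replicate 3. No share of all genes is given for these settings, in which fewer libraries separate more easily. The median r of the pairs was 0.681 without the 2 farthest libraries, against 0.938. The log2 ratio of Scgb3a2 to Scgb1a1 was lower in young adult EC without any 1 library. No pairing by replicate number was seen, since same-numbered libraries deviated from their group means with correlations of 0.03, -0.11 and -0.02. So few libraries cannot exclude that same-numbered ones were prepared together. The replicate block changed no call of a member (Scgb3a2 adjusted p 0.0243) and called 1371 genes instead of 1424. Pseudocounts of 0.1 and 5 called 1957 and 578 genes in all, and Scgb3a2 among them at both. With 1 library left out between 842 genes (young adult replicate 1) and 1874 genes (infant replicate 2) were called. The counts were 867 for young adult replicate 2, 927 for infant replicate 1 and 949 for infant replicate 3. The depth behind each RPKM is unknown, so what depth limits cannot be given.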

Other observations

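Other epithelial and myeloid transcripts that do not belong to the secretory products were present in the same libraries. Of 12 measured markers of alveolar type 1 cells, the flat cells of gas exchange, 10 were lower in young adult EC, 2 were called lower and 1 higher. Over all genes 58.6% were lower, 8.1% were called lower and 3.33% were called higher. Rtkn2, Scnn1g, Pdpn and the called Col4a3 reached the filter of 1 RPKM in infant libraries alone, which favours a lower young adult value. Ager, encoding a receptor abundant in these cells, gave 103.3, 102.8 and 122.2 RPKM across the infant libraries against 24.4, 50.0 and 59.3 RPKM across those from young adults (log2 difference -1.37, limma adjusted p 0.0163). Hopx rose from 15.4 ± 7.22 to 30.2 ± 6.48 RPKM (SD, n = 3 each, limma adjusted p 0.0469). Gprc5a was at 19.8 ± 6.38 and 21.7 ± 5.49 RPKM (limma adjusted p 0.683).

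Of 11 measured markers of ciliated airway cells all were lower in young adult EC and 4 were called, among them Sec14l3, which gave 25.4, 52.1 and 42.0 RPKM across the infant libraries against 5.4, 17.1 and 16.1 RPKM across those from young adults (limma adjusted p 0.0272). Tppp3, the most abundant, had means of 119.6 ± 43.8 and 115.2 ± 22.5 RPKM (SD, n = 3 each, limma adjusted p 0.976), and Dynlrb2 stayed at or under 5.8 RPKM. Unlike the surfactant genes, 2 of the 11 had their lowest value in young adult replicate 1 and their highest in replicate 3, an order that 23.1% of all genes had. Of 7 measured markers of neutrophils 3 were called lower in young adult EC, where 8.1% of all genes were. Camp, Retnlg, Csf3r and the called S100a8 and Ngp reached the filter of 1 RPKM in infant libraries alone, which favours a lower young adult value. S100a8 gave 2.1, 4.7 and 26.3 RPKM across the infant libraries and did not exceed 0.9 RPKM in those of young adults. Ngp and Ltf reached 12.4 and 7.7 RPKM in infant replicate 3. None of the 7 was highest in infant replicate 2, as were 35.7% of all genes. The count of 5 of 16 markers of macrophages and monocytes is near that share. The part of either cell type in Lyz2 was not tested.

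Lyve1, whose protein was used for exclusion, rose from 107.6 ± 55.7 to 319.1 ± 72.4 RPKM (SD, n = 3 each, limma adjusted p 0.0132), while Pdpn, also a marker of alveolar type 1 cells, was at most 1.7 RPKM in any library.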
